A study of Mus musculus with 16 samples.

Results

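Cytosolic ribosomal protein genes encode the proteins of the large and small subunits of the ribosome that translates nuclear mRNAs. They were taken here as the protein-coding genes whose mouse symbol is Rpl or Rps followed by a number (with or without a, x or l), by p0, p1 or p2, or by a, and all were read in the pituitary of 16 female mice. Of 17362 genes listed, 16405 were protein-coding and 77 had such a symbol, 46 of the large subunit and 31 of the small subunit. The annotation holds 80 protein-coding genes with such a symbol, and *Rpl3l*, *Rpl10l* and *Rpl39l* were not analysed here. *Rps4l*, annotated as a transcribed processed pseudogene, was left out by the rule.

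The study looked for a circulating factor that acts on bone in females lacking *Esr1*, the gene for oestrogen receptor alpha, in the *Nkx2-1* lineage, and profiled the pituitary as a possible source. Pituitaries of 4 mice in each of 4 groups were read by bulk RNA-seq, with 1 library per mouse. Controls were *Esr1* fl/fl females and mutants were *Esr1*Nkx2-1Cre females, and each genotype was fed either standard chow (SD) or a high-fat diet (HFD) for 17 weeks. All mice were 27 weeks old, so the groups are control SD, mutant SD, control HFD and mutant HFD. The Cre is driven from *Nkx2-1*, so *Esr1* is removed only where *Nkx2-1* is or once was active, which in the pituitary region is the tissue of neural origin rather than the hormone cells of the anterior lobe. Values are the normalized signal that the authors deposited for each gene, in the units of their table, and log2 fold changes are on the scale of log2(value + 0.5).

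Ribosomal proteins are made in nearly equal amounts, assemble with ribosomal RNA in the nucleolus, and are needed in every cell. Most of their mRNAs start with a run of pyrimidines that places their translation under mTOR control, and their genes are usually expressed together. They have also left many processed pseudogenes in the genome, copies made from mRNA, so that short reads from a ribosomal protein mRNA can often be placed on more than 1 gene.

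*Esr1* was read first as a check of the labels. It is a weak check, since this Cre does not act in the hormone cells of the anterior lobe, which a whole pituitary includes. It stood at 40.5, 46.6, 39.4 and 29.0 in control SD mice 1 to 4, at 10.02, 22.2, 20.5 and 21.8 in mutant SD mice 1 to 4, at 23.6, 43.4, 42.7 and 39.6 in the libraries labelled control HFD 1 to 4, and at 33.4, 27.9, 33.03 and 21.5 in mutant HFD mice 1 to 4. The genotypes did not overlap on SD and overlapped on HFD, where the library labelled control HFD 1 lay within the mutants' range. On SD the log2 fold change was −1.09 (SE 0.25, adjusted p 0.0409, limma with Benjamini-Hochberg), and leaving out 10 of the 16 mice in turn ended this call, with adjusted p up to 0.12. It was also lost with only the 8 mice compared and with animal numbers entered as 2 ranges (adjusted p up to 0.0636). On HFD it was −0.34 (adjusted p 0.696), or −0.55 to −0.21 with single mice left out.

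Several libraries stood apart. Mutant SD mouse 1 had a summed value of mitochondrially encoded genes of 119409, against at most 49368 in the other 15 libraries, and the most genes listed at 0 (533, against at most 310). Mutant SD mouse 1 and the library labelled control HFD 4 had the lowest sums over 5 corticotroph and melanotroph genes, 1683 and 3499, against at least 11360 elsewhere, and had 1 and 2 of 4 posterior lobe genes at 0. The library labelled control HFD 4 had *Esr1* and *Trp53inp1* (43.5, against at most 38.96 in mutants) among the controls, but its *Rps7*, *Gm6472*, endothelial sum, *Eef1a2*, *C1qa* and *Col25a1* all lay with the mutants, as set out beside those genes. Its posterior lobe sum (15.5) lay among those of the controls, as did that of mutant SD mouse 1 (14.6). The library labelled control HFD 1 was the reverse case for *Esr1*, with *Rps7* among the controls. Results are therefore also given without mutant SD mouse 1 and the library labelled control HFD 4, a choice made after the data had been seen.

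The ribosomal protein genes took up a modest and variable part of each library. Their summed value ranged from 54470 to 75683 over the 16 mice, with a median of 60404. As a share of all values this was 7.45%, 6.15%, 5.92% and 5.98% in control SD, 5.61%, 6.64%, 6.61% and 5.84% in mutant SD, 8.04%, 6.03%, 6.65% and 6.18% in the libraries labelled control HFD, and 5.33%, 5.97%, 6.22% and 6.83% in mutant HFD, each for mice 1 to 4. All 4 groups overlapped, with means of 6.38 ± 0.725, 6.17 ± 0.531, 6.73 ± 0.915 and 6.09 ± 0.620% (SD, n = 4). Prolactin alone made up 28.8% to 40.6% of all values, and without *Prl*, *Gh* and the mitochondrially encoded genes the share of the ribosomal protein genes was 10.3% to 13.4%. In whole pituitaries, fewer cells of a type and less RNA per cell cannot be told apart.

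All 77 genes passed the filter of a mean of at least 1, but their levels, which are per length, spanned a wide range. The highest means over the 16 mice were those of *Rps27* (3872), *Rpl41* (2962), *Rps21* (2469), *Rpl38* (2206) and *Rplp1* (1788), the last coding for a protein of the acidic stalk of the large subunit. The lowest were those of *Rpl5* (47.4), *Rpl27* (46.2), *Rpl12* (43.5), *Rps18* (34.7) and *Rps2* (5.17). *Rpl5* binds 5S rRNA and *Rps2* and *Rps18* are core proteins of the small subunit, so these low values stand for genes that every cell uses. The median of the 77 means was 669; 21 genes lay above 1000 and 7 under 100, and all 7 low genes had at least 1 near-identical copy listed in the same table. By the step between low values, a single read stood for 0.0443 to 0.0688 units per kilobase, so *Rps2* rested on at most 28.6 to 166 reads per library (median 56.0), and its values carry more counting error than those of *Rpl5*, at most 1102 to 1986 reads.

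Some members were very even across mice. The ratio of the highest to the lowest library was 1.302 for *Rps14*, 1.33 for *Rps9* and 1.33 for *Rps6*, a phosphorylated protein of the small subunit used as a readout of mTOR signalling. At the other end stood *Rpl29* with a ratio of 57.7, *Rps7* with 12.1, *Rps2* with 5.66 and *Rpl30* with 3.54. The members therefore held 2 kinds of variation, a small one that most of them shared between libraries and a large one in a few genes with copies. These 7 genes were singled out for their ratios after the values had been seen.

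The shared variation was read as each gene's deviation from its own mean over the 16 mice. The median deviation of the 77 genes was 0.18, −0.17, −0.17 and −0.21 (log2) in control SD mice 1 to 4. It was 0.36, 0.03, 0.12 and −0.09 in mutant SD mice 1 to 4. On HFD it was 0.28, −0.10, −0.06 and 0.08 in the libraries labelled control and −0.10, −0.04, −0.07 and 0.02 in the mutants. High libraries were thus found in 3 of the 4 groups, and mutant HFD held none beyond 0.02. All 4 groups overlapped, with means of −0.09 ± 0.19, 0.11 ± 0.19, 0.05 ± 0.17 and −0.05 ± 0.05 (SD, n = 4). The median deviation of all 14345 tested genes stayed between −0.06 and 0.03 in every library.

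The number of genes above their own mean showed how many took part. It was 73, 15, 6 and 3 of 77 in control SD mice 1 to 4, and 61, 46, 68 and 13 in mutant SD mice 1 to 4. It was 75, 15, 21 and 60 in the libraries labelled control HFD 1 to 4, and 23, 16, 15 and 43 in mutant HFD mice 1 to 4. In control SD mouse 1 and the library labelled control HFD 1 nearly the whole set was high, while in control SD mice 3 and 4 nearly the whole set was low. Mutant SD mouse 1 had the highest median and also the widest scatter, with an interquartile range of 0.496, next to 0.243 in mutant HFD mouse 1 and 0.0856 in the narrowest library. In mutant SD mouse 1 the large subunit stood at 0.38 and the small at 0.32, and genes with and without listed copies at 0.39 and 0.32, so both subunits and both kinds of gene moved together.

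**Figure D1:**
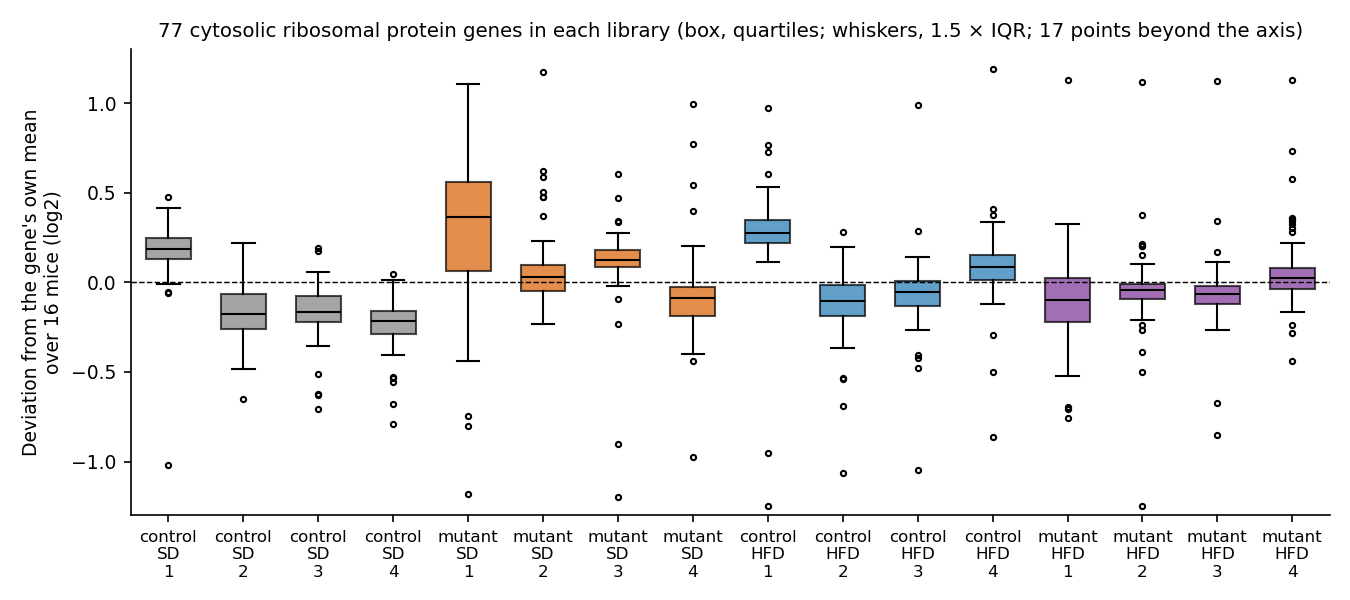
Deviation of each of the 77 ribosomal protein genes from its own mean over 16 mice (y axis, log2) in each library (x axis, group and replicate), as boxes of quartiles with whiskers of 1.5 interquartile ranges, 17 points lying beyond the axis. Medians run from −0.21 in control SD mouse 4 to 0.36 in mutant SD mouse 1, whose box is the widest, and the 4 groups overlap.

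Over the 16 libraries, which differ in composition and scaling as well as in group, most members followed each other. The median Pearson r over 2926 pairs of members was 0.593, and 330 pairs (11.3%) lay below 0. Each member's r with the median of the other members had a median of 0.810, and 63 of 77 lay above 0.5, while over all tested genes outside the rule 10.1% lay above 0.5. Only *Rps3* (−0.316), *Rpl9* (−0.304), *Rpl29* (−0.182), *Rps21* (−0.0261) and *Rps4x* (−0.00486) lay below 0, 5 genes named for this after their values were seen, and their Spearman rho were 0.415, 0.312, −0.0882, 0.191 and 0.441. Within groups the members varied less than other genes, with a median SD of 0.197 on the log2 scale against 0.260 over all tested genes. The genes compared were not matched for level, the median of the member means being 669, and the part of level in this difference was not tested. The 629 protein-coding genes outside the rule with every annotated transcript under 1000 bases had r 0.797 and rho 0.850 between their median and that of the members over 16 libraries, with medians of 0.43 in mutant SD mouse 1 but 0.01 in control SD mouse 1 and 0.03 in the library labelled control HFD 1, and the part of transcript length in the shared variation was not tested.

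**Figure D2:**
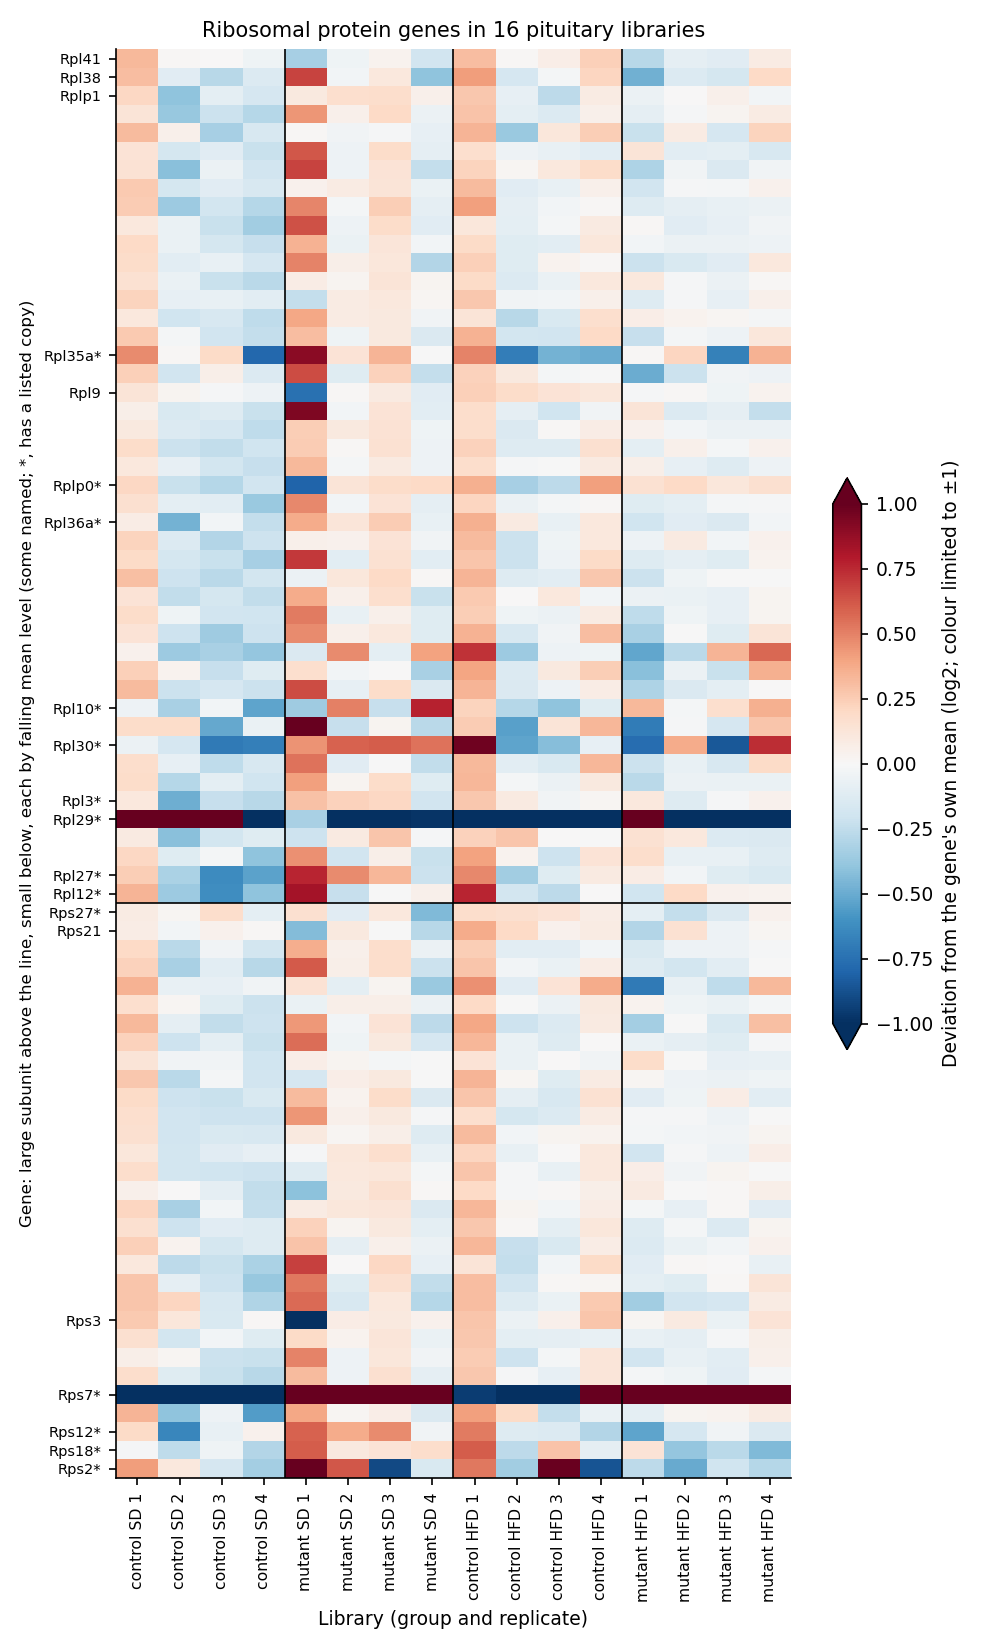
Deviation of every ribosomal protein gene (y axis, large subunit above the line and small below, by falling mean, with some genes named and a star where a named gene has a listed copy) from its own mean in each library (x axis), as colour on a log2 scale limited to ±1. Columns such as control SD mouse 1 and the library labelled control HFD 1 are pale red in nearly all genes, while *Rps7*, *Rpl29* and *Rpl30* change abruptly from library to library.

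*Rps3* and *Rpl9*, the members with the lowest Pearson r, were low in mutant SD mouse 1. *Rps3*, a protein of the mRNA entry channel of the small subunit, stood at 619, 559, 465 and 522 in control SD, 228 in mutant SD mouse 1, and 544, 555 and 534 in mutant SD mice 2 to 4. On HFD it was 628, 496, 536 and 629 in the libraries labelled control and 524, 551, 494 and 567 in the mutants. *Rpl9* was 849, 789, 769.8 and 749 in control SD, 461 in mutant SD mouse 1 and 784, 824 and 718 in the other mutants on SD, against 916, 879, 853 and 840.3 in the libraries labelled control HFD and 767, 781, 755 and 795 in mutant HFD. In both genes the other 15 libraries lay close together, so their SD fold changes of −0.30 and −0.21 rested on that library, and without it that of *Rps3* was 0.02 and that of *Rpl9* −0.03. *Rplp0* (36b4), a stalk protein gene used as a qPCR reference, was lowest in the same library, but its other 15 libraries were spread from 486 to 815. It stood at 707, 525, 504 and 537 in control SD, 352, 671, 697 and 705 in mutant SD, 784, 486, 512 and 815 in the libraries labelled control HFD and 681, 705, 664 and 685 in mutant HFD. Its log2 fold changes were 0.05 for mutants on SD, 0.11 for mutants on HFD, 0.17 for HFD in controls and 0.23 for HFD in mutants, none past the test. With single mice left out they ran from −0.04 to 0.29 (the latter without mutant SD mouse 1), from −0.01 to 0.24, from 0.04 to 0.29 and from −0.02 (without mutant SD mouse 1) to 0.32.

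The member whose genotype difference passed the test was *Rps7*, a small subunit protein gene (ENSMUSG00000061477, chr12:28630854-28635953, minus strand, GRCm38). Its values were 77.03, 37.7, 50.5 and 47.2 in control SD, 456, 354, 399 and 312 in mutant SD, 80.8, 40.5, 57.3 and 357.9 in the libraries labelled control HFD 1 to 4, and 343, 340.0, 342 and 343 in mutant HFD. Values fell at 2 separate levels, with 7 of 8 control libraries at no more than 80.8 and all 8 mutants and the library labelled control HFD 4 at no less than 312. *Rps7* is uncertain as a measure of that gene, because nearly the same sequence is carried by *Gm6472* (ENSMUSG00000095597, chrX:152909505-152910155, minus strand, GRCm38), a transcribed processed pseudogene. Over the 582 bases of the *Rps7* coding sequence the 2 differ at 3 positions, T26G, G48A and G123T, counted from 1 at the first base of the coding sequence, and they are identical over a stretch of 459 bases. A read that covers none of the 3 positions cannot be assigned to either gene from this sequence. The stretches around these positions are shown 5′ to 3′ on the coding strand, from GENCODE M21 transcripts, with the differing base in capitals.
Rps7 at 26: gagcgccaagatcgTgaagcccaatggcg
Gm6472 at 26: gagcgccaagatcgGgaagcccaatggcg
Rps7 at 48: aatggcgagaagccGgacgagttcgagtc
Gm6472 at 48: aatggcgagaagccAgacgagttcgagtc
Rps7 at 123: aaggcgcagctgcgGgaactcaacatcac
Gm6472 at 123: aaggcgcagctgcgTgaactcaacatcac

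*Gm6472* ran the other way. It stood at 872, 792, 701 and 701 in control SD, 977, 412, 471 and 405 in mutant SD, 952, 715, 787 and 491 in the libraries labelled control HFD, and 446, 434, 454 and 431 in mutant HFD. Wherever *Rps7* was high *Gm6472* was low, except in mutant SD mouse 1, where both were high. The sum of the pair was 949, 829.5, 751 and 748 in control SD, 1433, 766, 871 and 717 in mutant SD, 1033, 755, 844 and 849 in the libraries labelled control HFD and 789.5, 774, 796 and 774 in mutant HFD. The sums of all 4 groups overlapped, with means of 819 ± 94.2, 947 ± 330.3, 870.4 ± 117 and 783 ± 11.2 (SD, n = 4). *Rps7* held 8.12%, 4.54%, 6.72% and 6.31% of that sum in control SD, 31.8%, 46.2%, 45.9% and 43.5% in mutant SD, 7.82%, 5.36%, 6.79% and 42.1% in the libraries labelled control HFD and 43.5%, 44.0%, 43.0% and 44.3% in mutant HFD. What differed between genotypes was thus the split between *Rps7* and its copy, while the sums overlapped between genotypes on both diets.

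**Figure D3:**
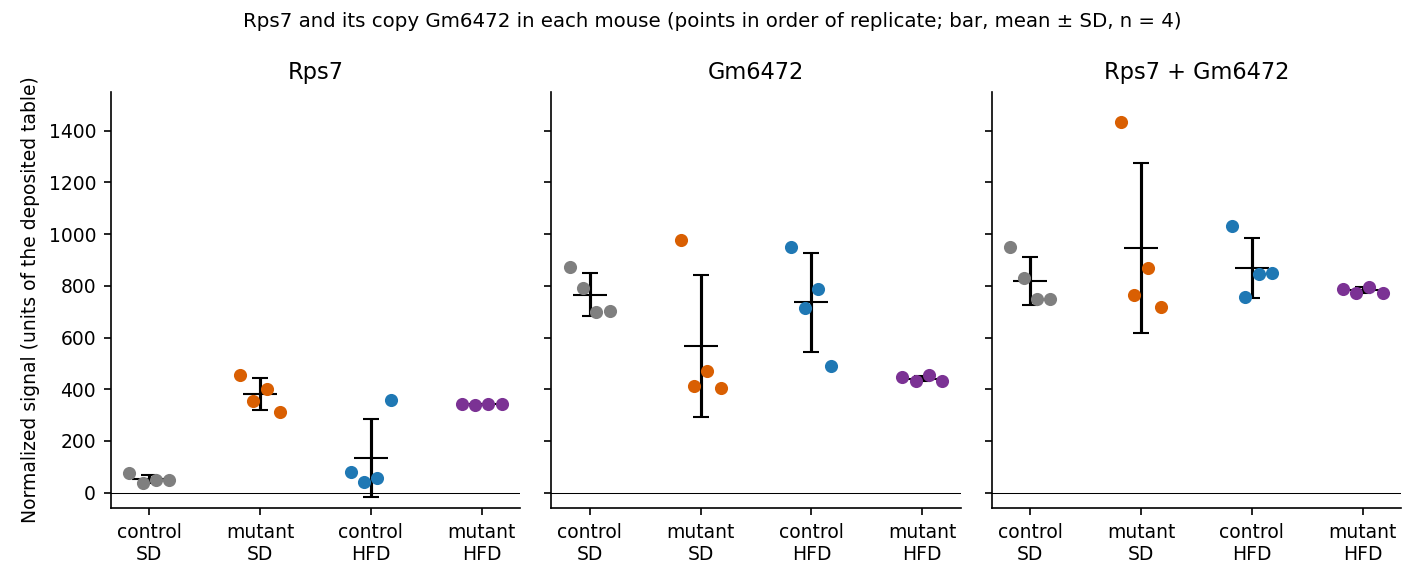
Normalized signal (y axis, units of the deposited table) of *Rps7*, of its copy *Gm6472* and of their sum in each of 16 mice by group (x axis), with mean ± SD of 4 mice. *Rps7* lies at or under 80.8 in 7 of 8 control libraries and at or above 312 in the mutants and the library labelled control HFD 4, whereas the sums overlap between all groups.

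On SD, *Rps7* was higher in mutants by 2.86 on the log2 scale (SE 0.46, adjusted p 0.00962, limma with Benjamini-Hochberg; exact permutation p 0.0286, two-sided, the smallest that 4 mice against 4 allow). Its call was kept without each of the 16 mice in turn, with fold changes from 2.72 to 3.06. On HFD the difference was 1.91 (adjusted p 0.205; exact permutation p 0.143), and without the library labelled control HFD 4 it was 2.57. That library was singled out in part by its *Rps7*, so leaving it out is no test of *Rps7* on HFD. The interaction was −0.96 (adjusted p 0.924), so the fold changes on the 2 diets were not shown to differ. Over both diets *Rps7* rose by 2.39 (SE 0.32, adjusted p 0.00161). Summed with its 3 listed copies, of which *Gm6472* had a mean of 627 and *Gm45754* and *Gm7285* of 4.04 and 0.941, the difference on SD was 0.16 (adjusted p 0.623) and that on HFD −0.14. *Gm6472* itself differed by −0.53 on SD (adjusted p 0.229) and −0.70 on HFD (adjusted p 0.325), and it fell by 0.62 over both diets (adjusted p 0.0406). Its call was gained on SD without mutant SD mouse 1 (−0.83, adjusted p 0.0335). On HFD it was gained without the library labelled control HFD 4 (−0.88, adjusted p 0.0459). That library stood apart in *Gm6472* too, so the gain on HFD is no test. Leaving out both libraries together also gained the calls on SD and on HFD. For the sum of *Rps7* and *Gm6472*, exact permutation p were 0.657 on SD and 0.143 on HFD, and between diets 0.429 in controls and 0.514 in mutants.

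Endothelial markers followed the same pattern of libraries as *Rps7*. Summed over 5 genes (*Plvap* the most abundant, none at 0), they were 108, 123, 121 and 101 in control SD, 206, 159, 169.5 and 154 in mutant SD, 94.3, 105, 108 and 183 in the libraries labelled control HFD, and 164, 151, 155 and 149 in mutant HFD. All mutants and the library labelled control HFD 4 lay above the other controls. Over both diets 3 of the 5 rose, against 6.54% of all genes called and 4.48% called higher. They were *Pecam1* by 0.60 (adjusted p 0.0175), *Cdh5* by 0.62 (adjusted p 0.0190) and *Plvap* by 0.43 (adjusted p 0.0324). The call of *Plvap* was lost without any of 8 single mice, with adjusted p up to 0.0782. Those 8 were control SD mouse 4, the libraries labelled control HFD 1 to 3 and all 4 mutant HFD mice. Their part in the split between *Rps7* and *Gm6472* was not tested.

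*Rpl29*, a heparin-binding protein of the large subunit, switched between 2 levels that crossed genotype and diet. It stood at 349.7, 264, 279.6 and 8.45 in control SD, 18.6, 6.06, 9.94 and 11.7 in mutant SD, 9.61, 10.97, 11.1 and 9.09 in the libraries labelled control HFD, and 328, 9.60, 7.48 and 8.85 in mutant HFD. Control SD mice 1 to 3 and mutant HFD mouse 1 were above 260 and the other 12 libraries under 20. All 4 high libraries had animal numbers in the lower of 2 ranges, which held 6 of the 16 mice. *Gm13841* (chr5:115801677-115802159, minus strand) and *Gm8210* (chr1:43189156-43189638, plus strand), pseudogenes identical to each other and listed with equal values, were at 139.7, 121, 103 and 212 in control SD, 317, 229, 245 and 246 in mutant SD, 274, 217, 216 and 284 in the libraries labelled control HFD and 123, 264, 251 and 246 in mutant HFD. They were lowest in the 4 libraries where *Rpl29* was high. Each differs from the 480 coding bases of *Rpl29* at 3 positions, C72A, C300T and T423C, counted in the same way from its own first coding base. Summed with its 5 listed copies *Rpl29* ran from 438 to 657, with an SD of 0.173 over the 16 mice on the log2 scale, against 2.21 for *Rpl29* alone.

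The fold changes of *Rpl29* were large and did not pass. They were −3.46 on SD (SE 1.14, adjusted p 0.119; exact permutation p 0.114), 1.07 on HFD (adjusted p 0.815), −3.53 for HFD in controls (adjusted p 0.998) and 0.99 for HFD in mutants (adjusted p 0.867). Without mutant HFD mouse 1 the HFD difference turned to −0.23 and the diet difference in mutants to −0.30, and with animal numbers entered as 2 ranges the HFD difference was −0.39. Summed with its copies, *Rpl29* differed by 0.05 on SD, 0.08 on HFD and −0.02 between diets in controls.

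*Rpl30*, a large subunit protein that also regulates its own mRNA in yeast, had yet another pattern. Its values were 249, 231, 159 and 162 in control SD, 355, 391.01, 396 and 378 in mutant SD, 509, 179.6, 193 and 246 in the libraries labelled control HFD, and 153, 337, 144 and 433 in mutant HFD. The genotypes did not overlap on SD and were mixed on HFD. Its copy *Gm12191* (chr11:49678710-49679057, minus strand), which differs at 1 of 345 coding bases, G96A, was 706, 714, 489 and 582 in control SD, 702, 299, 326 and 228 in mutant SD, 299.6, 506, 536 and 639 in the libraries labelled control HFD and 590.1, 269.7, 555 and 331 in mutant HFD. *Rpl30* held between 20.4% and 27.4% of the sum with its 3 listed copies in the 9 libraries of the lower level, 33.5% in mutant SD mouse 1, and 54.6% to 62.7% in 6 others, namely mutant SD mice 2 to 4, the library labelled control HFD 1 and mutant HFD mice 2 and 4. On SD the difference was 0.95 (SE 0.35, adjusted p 0.150, limma with Benjamini-Hochberg; exact permutation p 0.0286), and it was −0.12 once the copies were summed in. With only the 8 mice compared, *Rpl30* alone, without its copies, was called on SD (adjusted p 0.0206).

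Such shifts between a gene and its copies were not rare. Near-identical copies (at least 90% identity over at least 100 bases of coding sequence) were listed for 44 of the 77 genes, 84 copies in all, and 33 genes had none in the table. In the annotation 75 genes had at least 1 copy. In 14 genes the copies summed to more than the gene itself, as in *Rpl10*, with a mean of 302 against 2019 for *Rpl10-ps3*, whose sequence does not differ from any of the 642 coding bases of *Rpl10*. The share of a gene in the sum with its copies ranged over more than 20 percentage points among mice in 10 of the 44 genes and under 5 points in 26, with a median range of 3.10 points. The 10 genes were *Rpl29* (55.6 points), *Rpl36a* (46.8), *Rpl30* (42.3), *Rps7* (41.1), *Rpl35a* (39.6), *Rpl37* (34.7), *Rpl35* (30.1), *Rpl31* (26.5), *Rpl3* (20.6) and *Rpl10a* (20.2). In 36 of the 44 genes the sum with the copies varied less over the 16 mice than the gene alone. For some of the 36 the difference was very small, as in *Rpl13*, with an SD of 0.1484 against 0.1485 on the log2 scale. Of the 10 genes above, the sum varied more in *Rpl36a* (0.2393 against 0.2216), *Rpl37* (0.3733 against 0.2385) and *Rpl35* (0.3512 against 0.2547).

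*Rpl35a*, which is mutated in some patients with Diamond-Blackfan anaemia, showed a switch that crossed all groups but mutant SD. It held 99.4% to 100% of its sum in 11 libraries and 62.0%, 65.9%, 63.2%, 60.4% and 64.7% in control SD mouse 4, the libraries labelled control HFD 2 to 4 and mutant HFD mouse 3. *Rpl35a* itself was at 1091, 793, 897 and 454 in control SD, 1467, 865, 995 and 782 in mutant SD, 1109, 486, 564 and 555 in the libraries labelled control HFD, and 792, 909.7, 492 and 997 in mutant HFD. The 5 libraries with the lower share were thus the 5 with the lowest values, and all 5 had animal numbers in the upper of the 2 ranges. HFD against SD in controls gave −0.27 (adjusted p 0.999; −0.53 to −0.10 with single mice left out), with animal numbers entered as 2 ranges 0.21, and with the copies summed in 0.06.

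**Figure D4:**
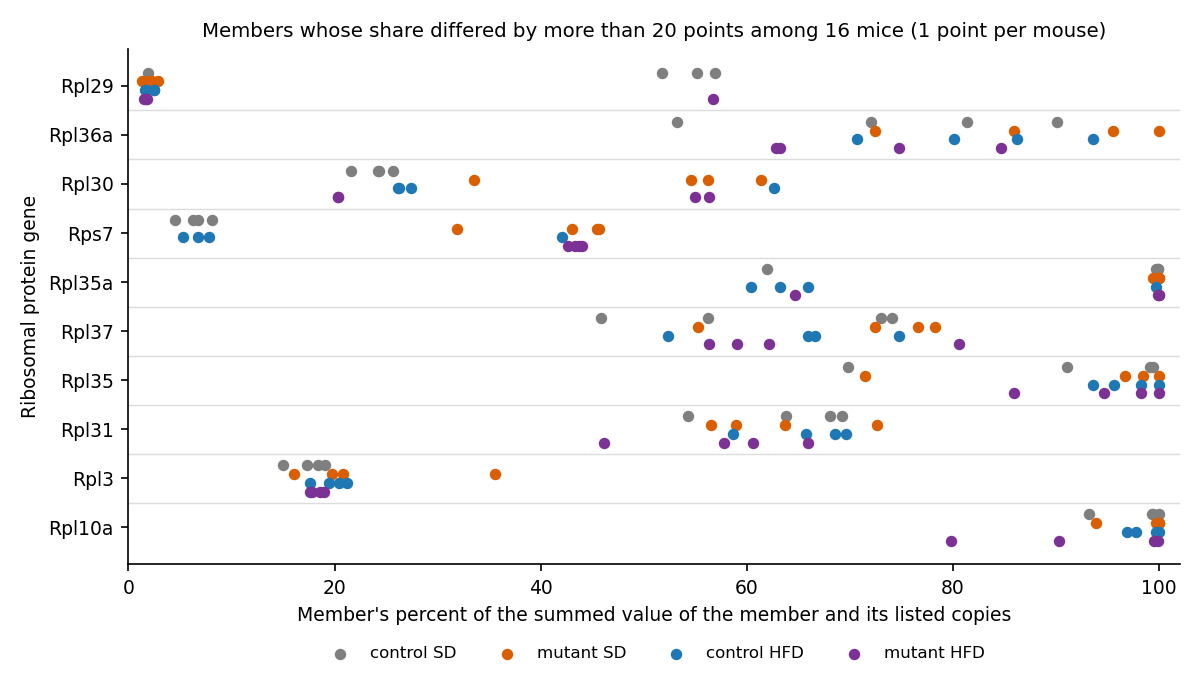
Share of each of 10 ribosomal protein genes (y axis) in the summed value of the gene and its listed copies (x axis, percent), 1 point per mouse coloured by group, for the genes whose share ranged over more than 20 points. *Rps7* divides almost by genotype, *Rpl29*, *Rpl30* and *Rpl35a* divide across groups, and *Rpl3* stands apart in mutant SD mouse 1 alone.

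On SD most members were slightly higher in mutants than in controls, and *Rps7* alone passed the test. With only the 8 mice compared, *Rpl30* passed too (adjusted p 0.0206), with 311 of all genes called. Of 77 members 1 was called at an adjusted p under 0.05, *Rps7*, against 264 of 14345 tested genes (1.84%). The count over all genes ran from 33 to 826 with single mice left out, and *Rps7* was called each time. At an unadjusted p under 0.05, 11 members passed, against 19.9% of all genes, and of these 10 were higher and 1 was lower, against 10.9% and 9.02%. Among the 10 were *Rps7*, *Rpl30* (0.95), *Rpl27* (0.65), *Rps12* (0.47), *Rps18* (0.41), *Rpl3* (0.36), *Rpl23a* (0.35), *Rpl36a* (0.33) and *Rpl6* (0.23), and the lower one was *Rpl29*. With its copy summed in, *Rpl36a* had means of 761.2 ± 124.6 in control SD and 804 ± 199.6 in mutant SD (SD, n = 4). On HFD they were 821.9 ± 122.3 in the libraries labelled control and 810.1 ± 145.5 in mutants, and all groups overlapped. Groups did not overlap in *Rps7*, *Rpl30* and *Rps18*, all higher in mutants, which is 3.9% of members against 6.09% of all genes, and 0 members were lower without overlap, against 4.50%. The median fold change of the members was 0.19 (quartiles 0.10 and 0.26), that of all genes −0.01, and 69 of 77 members lay above 0, against 49.0% of all genes.

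That shift on SD was common to both subunits but depended on the normalization and on single mice. The median was 0.22 in the large and 0.13 in the small subunit, 0.17 in genes without a listed copy and 0.21 in genes with one. After quantile normalization the member median turned to −0.01, with 38 of 77 above 0, and scaling to the sum without *Prl*, *Gh* and mitochondrial genes gave 0.08, with 57 above 0, where the median of all genes itself was −0.11 on SD and 0.11 in the interaction. Median scaling left the member median at 0.207, with 69 of 77 above 0. Without mutant SD mouse 1 it was 0.11, without control SD mouse 4 it was 0.12 and without control SD mouse 1 it was 0.29. Without control SD mouse 1, 3 members were called, *Rps7*, *Rpl27* and *Rpl3*, and so were 826 of all genes. Without mutant SD mouse 1 and the library labelled control HFD 4 the median was 0.11, with 60 of 77 above 0, and *Rps7* (2.77) was the 1 member called, with 961 of all genes (6.7%).

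Of the single genes, *Rpl27* was 53.1, 35.8, 28.7 and 30.7 in control SD, 76.2, 62.3, 56.5 and 38.4 in mutant SD, 62.5, 35.1, 41.1 and 47.5 in the libraries labelled control HFD and 47.1, 43.8, 41.1 and 40.1 in mutant HFD. The SD groups overlapped through control SD mouse 1 and mutant SD mouse 4, and the difference of 0.65 (SE 0.22, adjusted p 0.124) became 0.83 with an adjusted p of 0.0313 without control SD mouse 1. *Rps18* was 33.6, 28.3, 32.8 and 27.5 in control SD and 51.9, 36.2, 37.3 and 38.2 in mutant SD. It was 51.7, 28.2, 41.4 and 31.8 in the libraries labelled control HFD and 37.3, 25.7, 28.002 and 24.8 in mutant HFD, so it was separate by genotype on SD (adjusted p 0.228; exact permutation p 0.0286) and overlapping on HFD. Both genes have listed copies and are uncertain. *Rps12*, which has a listed copy and is uncertain too, was 140.4, 77.9, 117 and 127 in control SD and 185, 159, 171 and 119.9 in mutant SD, and overlapped.

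On HFD the members lay slightly lower in mutants. 0 of 77 members and 0 of all genes (0%) passed limma's test with Benjamini-Hochberg adjustment, and at an unadjusted p under 0.05 *Rps7* alone passed, against 10.2% of all genes. *Rps7* was higher and 0 members were lower, against 6.58% and 3.6%. The median fold change was −0.10 (quartiles −0.16 and −0.05), that of all genes was 0.02, and 71 of 77 members lay below 0. Groups did not overlap in 5 members, all lower in mutants, which is 6.49% against 2.34% of all genes, while 0 were higher without overlap, against 2.96%. They were *Rpl31* (−0.27), *Rpl36* (−0.26), *Rps27* (−0.25), *Rpl27a* (−0.20) and *Rpl9* (−0.17), with adjusted p between 0.581 and 0.738, and *Rpl31*, *Rpl36* and *Rpl27a* are named here because their groups did not overlap. With its copies summed in, *Rpl31* did overlap. That sum was 1386, 1195, 1121 and 1319 in the libraries labelled control HFD and 1197, 1162, 1153 and 1236 in mutant HFD. *Rpl27a* is uncertain as well, since its copy *Gm7536*, with no differing base over 444, had a mean of 1403 against its own 208. *Gm7536* overlapped on HFD, at 1304 to 1680 in the libraries labelled control and 1281 to 1383 in mutants. The member median was −0.03 without the library labelled control HFD 1, the value nearest to 0 with a single mouse left out, and −0.10 without mutant SD mouse 1 and the library labelled control HFD 4, where 1064 of all genes (7.42%) were called and *Rps7* was at 2.57, which is no test of *Rps7* for the reason given above.

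*Rps27*, a zinc-finger protein of the small subunit and the member with the highest level, was 4074, 3898, 4346 and 3601 in control SD, 4292, 3555, 4129 and 2835 in mutant SD, 4339, 4296, 4240.2 and 4050.4 in the libraries labelled control HFD, and 3594, 3265, 3479 and 3968 in mutant HFD. The 4 mutants on HFD lay under the 4 libraries labelled control HFD. The largest negative differences on HFD were those of *Rps29* (−0.39, adjusted p 0.52), *Rps2* (−0.39, adjusted p 0.82) and *Rps18* (−0.38, adjusted p 0.497), and after *Rps7* and *Rpl29* the largest positive one was that of *Rpl10* (0.36, adjusted p 0.619). With single mice left out they came as near to 0 as −0.22 (*Rps29*), −0.09 (*Rps2*), −0.22 (*Rps18*) and 0.27 (*Rpl10*). *Rps29* was 1863, 1255, 1494 and 1758 in the libraries labelled control HFD and 832, 1289, 1138 and 1699 in mutant HFD. *Rps2* was 6.93, 3.55, 9.70 and 2.33 in the libraries labelled control HFD and 3.78, 3.13, 3.99 and 3.72 in mutant HFD. Both overlapped, and *Rps2* is uncertain because its 3 listed copies had a summed mean of 845 against its own 5.17. *Rpl10* with its copies summed in differed by −0.04.

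In controls, HFD was accompanied by slightly higher values of nearly all members. 0 members and 0 of all genes (0%) passed limma's test with Benjamini-Hochberg adjustment. At an unadjusted p under 0.05, *Rpl3* (0.31), *Rpl36a* (0.29) and *Rpl34* (0.28) were higher and *Rpl29* was lower, 4 members against 4.13% of all genes (1.92% higher and 2.2% lower), and *Rpl34* is named here for that p. All 4 have listed copies and are uncertain. The copy of *Rpl34*, *Rpl34-ps1*, had a mean of 1194 against 58.4 for *Rpl34* itself. *Rpl3* with its copy had means of 740.8 ± 70.5 in control SD and 811.5 ± 70.7 in the libraries labelled control HFD (SD), with overlap. No member separated the diets without overlap, against 1.25% higher and 1.36% lower among all genes. The median fold change was 0.14 (quartiles 0.09 and 0.18), that of all genes was 0.00, and 75 of 77 members lay above 0, all but *Rpl29* and *Rpl35a*. Without the library labelled control HFD 1 the median was 0.07 and without control SD mouse 1 it was 0.23, and under quantile normalization it was 0.07. The highest after *Rps7* (0.82) were *Rpl30* (0.39) and *Rpl12* (0.34). Without the library labelled control HFD 4 *Rps7* was at 0.16, and without the library labelled control HFD 1 *Rpl30* was at 0.06 and *Rpl12* at 0.11. *Rpsa*, the laminin receptor, stood at 0.01, which turned to −0.07 under quantile normalization.

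*Rpl12* was 53.2, 32.6, 27.1 and 31.6 in control SD and 71.5, 36.9, 34.8 and 42.03 in the libraries labelled control HFD, against 74.8, 35.6, 41.7 and 43.5 in mutant SD and 36.5, 48.2, 43.3 and 42.9 in mutant HFD. *Rpl3*, which reaches towards the peptidyl transferase centre, was 161, 107, 127 and 123 in control SD and 180.4, 159, 146 and 151 in the libraries labelled control HFD, against 184, 175, 173 and 131 in mutant SD and 160.8, 137, 148 and 154 in mutant HFD. In both genes control SD mouse 1 and the library labelled control HFD 1 were the highest of their groups, as they were for the member median, and the diets overlapped in controls. *Rpsa* was 679.6, 588, 510.2 and 525 in control SD, 725, 489.9, 516 and 605 in the libraries labelled control HFD, 701, 541, 596 and 554 in mutant SD and 523, 549.9, 565 and 592 in mutant HFD.

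In mutants, HFD was accompanied by slightly lower values. 0 members and 0 of all genes (0%) passed limma's test with Benjamini-Hochberg adjustment, and at an unadjusted p under 0.05 *Rps12* (−0.57), *Rps18* (−0.49) and *Rpl36a* (−0.29) were lower and 0 members higher, 3 members against 5% of all genes (2.45% lower and 2.55% higher). The sum of *Rpl36a* with its copy was not lower, with means of 804 in mutant SD and 810.1 in mutant HFD. *Rps12* alone did not overlap, lower on HFD at 85.3, 109, 119.9 and 111 against 185, 159, 171 and 119.9 on SD (adjusted p 0.813; exact permutation p 0.0286), with the nearest mice of the 2 groups almost equal. This is 1 of 77 members against 1.44% of all genes, and 0 were higher without overlap, against 1.88%. Any 4 mice against 4 without overlap give an exact permutation p of 0.0286, as for *Rpl30* and *Rps18* on SD. It therefore adds nothing to the lack of overlap. *Rps12* is also uncertain, since its copy *Rps12-ps3* had a mean of 1697 against its own 126. The median fold change was −0.13 (quartiles −0.22 and −0.05), that of all genes 0.02, and 68 of 77 members lay below 0. Without mutant SD mouse 1 the median was −0.06, and quantile normalization made it −0.02 with 31 of 77 above 0. The lowest were *Rpl30* (−0.67), *Rps12* and *Rps2* (−0.54), which came as near to 0 as −0.43, −0.47 and −0.17 with single mice left out and were −0.10, −0.19 and −0.11 with their copies summed in. The highest were *Rpl29*, *Rps3* (0.28) and *Rplp0*, of which *Rps3* turned to −0.03 without mutant SD mouse 1.

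The opposite signs on the 2 diets appear in the interaction, the genotype difference on HFD minus that on SD, which shares its groups with the comparisons above. Its member median was −0.29 (quartiles −0.40 and −0.18) and 73 of 77 members lay below 0, with a median of all genes of 0.02. 0 members and 0 of all genes (0%) passed limma's test with Benjamini-Hochberg adjustment, with a smallest adjusted p of 0.924 among members. At an unadjusted p under 0.05, 9 members were lower (*Rpl30*, *Rps18*, *Rpl27*, *Rps12*, *Rpl36a*, *Rpl36*, *Rpl23*, *Rpl3* and *Rpl27a*) and *Rpl29* was higher, 10 members against 4.2% of all genes (2.07% lower and 2.13% higher). The median was −0.08 under quantile normalization, with 25 of 77 above 0, and −0.19 without mutant SD mouse 1 and the library labelled control HFD 4. The member median varied between mice of a group with a pooled SD of 0.16 on the log2 scale.

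**Figure D5:**
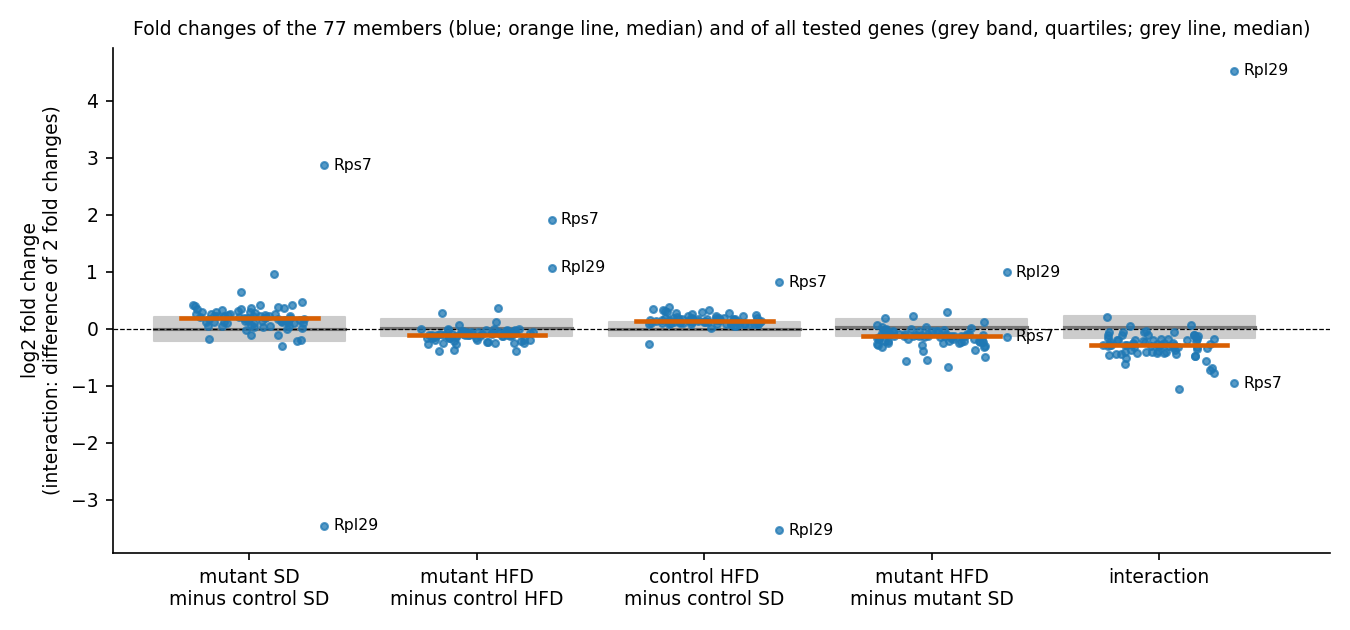
Log2 fold changes (y axis) of the 77 ribosomal protein genes (points, orange line their median) and of all tested genes (grey band of quartiles, grey line the median) in 4 comparisons and their interaction (x axis). Member medians are 0.19, −0.10, 0.14, −0.13 and −0.29, the first of which turns to −0.01 under quantile normalization, and *Rps7* and *Rpl29* lie far from the other members.

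Averaged over diets, the member median lay near 0. *Rps7* was the 1 member called, against 938 of all genes (6.54%), a count that ran from 441 to 1931 with single mice left out while *Rps7* stayed the 1 member called. At an unadjusted p under 0.05 *Rps7* and *Rpl10* (0.38) were higher and *Rpl41*, named here for that p, was lower, 3 members against 22.7% of all genes (13% higher and 9.71% lower). The member median was 0.03, with 53 of 77 above 0, and it was −0.05 under quantile normalization, with a median of all genes of −0.03, and −0.02 with the sum scaling, with a median of all genes of −0.05. Without mutant SD mouse 1 and the library labelled control HFD 4, *Rpl10* (0.47, adjusted p 0.046) was called beside *Rps7* (2.67), as were 2668 of all genes (18.6%). The *Rps7* value there is no test, since the library labelled control HFD 4 was singled out in part by its *Rps7*. *Rpl10* is uncertain because of its copy of equal sequence. Averaged over genotypes, 0 members were called for diet by limma with Benjamini-Hochberg adjustment, against 1 of all genes (0.00697%), 0 members had an unadjusted p under 0.05, against 5.11% of all genes (2.5% higher and 2.61% lower), and the median was 0.00.

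*Rps27l* and *Rpl39* were also read as genes with a paralogue, that of *Rpl39* not being analysed here. *Rps27l*, which codes for a close relative of *Rps27* and is a target of p53, was 194, 116, 147 and 104 in control SD, 200.1, 155, 159.8 and 138 in mutant SD, 203, 175, 129.5 and 146 in the libraries labelled control HFD and 143, 156, 157 and 162 in mutant HFD, far under *Rps27* and with no separation of groups. *Rpl39*, a short protein of the peptide exit tunnel, was 303, 253, 224 and 239 in control SD, 389.9, 247, 267 and 225 in mutant SD, 334, 248, 240.5 and 338 in the libraries labelled control HFD and 231, 254, 239 and 306 in mutant HFD. All groups overlapped here too. The genotype differences were 0.25 and 0.12 on SD and −0.06 and −0.16 on HFD for *Rps27l* and *Rpl39*, none past the test.

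A pyrimidine tract, for which the family is known, was found at the starts of some members. A tract was taken as a C within 5 bases of an annotated start, followed by at least 4 bases that are C or T, read on the sense strand. RefSeq starts (GRCm38.p6) were at hand for 57 of the 77 genes, and 28 of these (49.1%) had such a tract at 1 or more starts, against 5718 of 27025 genes (21.2%). By start, this was 44.1% of 68 starts of members and 18.4% of 32851 starts of all genes. Starts are shown from 15 bases before to 15 bases from the start on, 5′ to 3′ on the sense strand, with the tract in capitals, for the most abundant member, for *Rpl38*, *Rps18* and *Rpl35a*, and for *Rps7* and *Rplp0*, whose windows have no such tract.
Rps27 (chr3:90213634-90213663, minus): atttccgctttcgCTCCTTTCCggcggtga
Rpl38 (chr11:114668565-114668594, plus): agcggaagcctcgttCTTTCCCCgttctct
Rps18 (chr17:33955651-33955680, minus): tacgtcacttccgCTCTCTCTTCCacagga
Rpl35a (chr16:33056467-33056496, plus): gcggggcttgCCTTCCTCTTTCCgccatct
Rps7 (chr12:28635939-28635968, minus): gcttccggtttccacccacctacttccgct
Rplp0 (chr5:115559452-115559481, plus): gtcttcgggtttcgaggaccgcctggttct
No position in the genome was shared by most members. They lie on 19 chromosomes, 14 of them on chromosome 7 and 4 on the X, and their coding sequences run from 138 to 1257 bases with a median of 456.

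Other genes of the translation machinery were read as lists beside the members. The 7 ribosomal protein genes and relatives named otherwise (such as *Fau* and *Rack1*) followed the members closely over the 16 libraries, with r 0.949 and rho 0.924, and none was called in any comparison. Of 14 elongation factors and other mRNAs with a pyrimidine tract, 2 rose over both diets, against 6.54% of all genes called and 4.48% called higher. They were *Eef1a2* (0.48, adjusted p 0.0219) and *Vim* (0.50, adjusted p 0.0387), and r was 0.489 for the list. *Eef1a2* was 211, 155, 144 and 167 in control SD, 214, 264.6, 280.3 and 265.2 in mutant SD, 199.8, 151, 173 and 279 in the libraries labelled control HFD and 254, 246, 259 and 242 in mutant HFD. As with *Rps7*, all mutants and the library labelled control HFD 4 lay above the other controls. The call of *Eef1a2* was lost without control SD mouse 3 or the library labelled control HFD 3, with an adjusted p of up to 0.0526, and that of *Vim* was lost without any of 11 single mice, with adjusted p up to 0.0826, and with the sum scaling. None of 26 initiation factors (r 0.300), 24 RNA polymerase I and pre-rRNA factors (r 0.818), 24 assembly and export factors (r 0.651; 1 more was not analysed here) and 20 genes of mTOR and translational control (r −0.588, rho −0.265) was called in any comparison.

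Mitochondrial ribosomal protein genes, which are nuclear genes for the separate ribosome of mitochondria, moved with the cytosolic ones. Over the 16 libraries the medians of the 78 mitochondrial and the 77 cytosolic genes had an r of 0.909. On SD 2 of the 78 rose, *Mrpl33* (0.69, adjusted p 0.0388) and *Mrpl36* (0.56, adjusted p 0.0387), and both rose over both diets (0.42, adjusted p 0.035, and 0.32, adjusted p 0.0434), against 1.84% and 6.54% of all genes called. Called higher were 1.37% of all genes on SD and 4.48% over both diets. *Mrpl33* was 148, 109, 139 and 135 in control SD, 309, 202, 199 and 166 in mutant SD, 146, 161, 129 and 157 in the libraries labelled control HFD and 158, 176, 147 and 179.7 in mutant HFD, so mutants were higher without overlap on SD and mixed on HFD. The 4 calls were each lost without any of 10 or 11 single mice, with adjusted p up to 0.119, 0.114, 0.0805 and 0.1. Median scaling ended all 4, the 8 mice alone both on SD, eBayes without trend that of *Mrpl33* on SD and that of *Mrpl36* over both diets, and the sum scaling the latter too. None of the 13 mitochondrially encoded protein genes was called (r 0.616). Of 8 p53 targets (1 more was not analysed here) *Trp53inp1* fell by 0.33 over both diets (adjusted p 0.034), a call lost without any of 8 single mice (adjusted p up to 0.079). The 10 small nucleolar RNA host genes were not analysed here.

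Markers of pituitary cells and of other cell types gave the makeup of each library. Of the lists of lactotroph (2 genes), somatotroph (2), corticotroph and melanotroph (5), gonadotroph (3), thyrotroph (2), fibroblast (3), red blood cell (4), stem and folliculostellate (2 of 3) and proliferating (2 of 3) markers, none had a gene called in any comparison. All 4 red blood cell genes lay above 0 in mutants on both diets, with a median of 1.296 on SD (3 of 4 at an unadjusted p under 0.05) and of 0.68 on HFD (0 of 4). Over both diets the median was 1.00 (4 of 4, against 22.7% of all genes, 13% being higher). They summed to 551.5, 547.7, 3062 and 1589 in control SD, 4409, 2373, 2645 and 2136 in mutant SD, 748.5, 1700, 918.2 and 1155 in the libraries labelled control HFD and 2280, 1225, 1964 and 1719 in mutant HFD, and overlapped. *Prl* was the most abundant lactotroph gene, and *Gh*, *Pomc*, *Lhb* and *Tshb* were the most abundant of their lists. The cell type lists were also set against the member median over the 16 libraries, which share scaling. Of these lists, those that ran most strongly in the opposite direction were fibroblast (r −0.768, rho −0.656), lactotroph (−0.756, rho −0.747), corticotroph and melanotroph (−0.635, rho −0.447) and posterior lobe markers (−0.525, rho −0.582). These r are with the median deviation of the genes of a list and not with its sum. For the lactotroph list that deviation was −0.63 in mutant SD mouse 1 and between −0.24 and 0.28 in the other 15 libraries. Lactotroph genes summed to 313800, 285200, 330900 and 304200 in control SD, 496900, 303200, 345600 and 347800 in mutant SD, 291300, 370300, 262200 and 438900 in the libraries labelled control HFD and 423900, 377600, 333300 and 294400 in mutant HFD. Fibroblast genes (*Dcn* the most abundant) summed to 30.3, 43.6, 44.4 and 53.2 in control SD, 21.6, 39.4, 34.0 and 38.1 in mutant SD, 37.8, 46.2, 31.8 and 63.9 in the libraries labelled control HFD and 44.5, 49.1, 78.3 and 33.7 in mutant HFD. In mutant SD mouse 1, where the member median was highest, the lactotroph sum was the highest and the fibroblast sum the lowest of all. Corticotroph and melanotroph genes summed to 11590, 12540, 16260 and 17510 in control SD, 1683, 15210, 13750 and 12380 in mutant SD, 15560, 11360, 42260 and 3499 in the libraries labelled control HFD and 22180, 21940, 14240 and 19840 in mutant HFD. None of these genes was at 0, apart from 1 posterior lobe gene in mutant SD mouse 1 and 2 in the library labelled control HFD 4. Their part in the member median was not tested.

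Posterior lobe and immune lists each had 1 gene that rose, 1 of 4 and 1 of 5. Of all genes 1.84% were called on SD (1.37% higher) and 6.54% over both diets (4.48% higher). All 5 immune genes lay above 0 in mutants on both diets, with medians of 0.86 on SD and 0.56 on HFD. At an unadjusted p under 0.05 were 3 of 5 on SD and 1 of 5 on HFD. Over both diets the immune median was 0.67, with 5 of 5 at that p, against 22.7% of all genes (13% higher). In the posterior lobe list *Col25a1* was the 1 of 4 genes above 0 on SD, where the median fold change of the list was −0.66. On HFD it was 0.57 with 4 of 4 above 0, and over both diets −0.05 with 2 of 4. The median deviation of the list was −1.38 in mutant SD mouse 1, against 0.16 to 0.26 in the other mutants on SD and 0.14 to 0.51 in control SD, and it was −1.85 in the library labelled control HFD 4, against −0.05 to 0.38 in the other libraries on HFD. *Col25a1* of the posterior lobe list was 11.9, 6.40, 6.06 and 7.43 in control SD, 13.9, 17.4, 15.7 and 16.6 in mutant SD, 9.40, 7.77, 7.49 and 15.3 in the libraries labelled control HFD and 17.8, 14.6, 17.4 and 18.2 in mutant HFD. It rose by 1.00 on SD (adjusted p 0.0321; lost without any of control SD mice 2 to 4 or mutant SD mice 2 to 4, adjusted p up to 0.107, and with animal numbers entered as 2 ranges) and by 0.89 over both diets (adjusted p 0.00471). *C1qa*, a complement gene of macrophages and microglia, was 12.5, 16.6, 18.3 and 17.7 in control SD, 27.2, 26.1, 26.4 and 58.5 in mutant SD, 9.92, 12.4, 21.0 and 40.9 in the libraries labelled control HFD and 26.4, 51.4, 34.7 and 25.5 in mutant HFD. It rose by 0.92 over both diets (adjusted p 0.0466), a call lost without any of 14 single mice (adjusted p up to 0.108) and under 4 other alternatives (up to 0.0643). The posterior lobe list summed to 17.99, 14.8, 14.7 and 15.7 in control SD, 14.6, 23.5, 21.5 and 21.8 in mutant SD, 15.9, 14.4, 12.9 and 15.5 in the libraries labelled control HFD and 24.0, 20.9, 23.4 and 24.4 in mutant HFD, *Col25a1* being its most abundant gene. The 5 immune genes (*C1qa* the most abundant, none at 0) summed to 35.7, 50.2, 51.4 and 50.3 in control SD, 74.8, 65.2, 69.3 and 169.6 in mutant SD, 33.3, 42.6, 65.3 and 114 in the libraries labelled control HFD and 83.6, 146, 86.3 and 64.3 in mutant HFD. In *Col25a1* and *C1qa*, as in *Rps7*, the library labelled control HFD 4 lay with the mutants, and the part of both lists in the split between *Rps7* and *Gm6472* was not tested.

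Genes outside the family whose values were most like the member median over the 16 libraries, chosen by Pearson r, were genes of several kinds. They were *Uqcrb* of respiratory complex III (r 0.947, and 0.896 without the 2 libraries farthest from the median), *Txn1*, thioredoxin (0.942), *Bex2* (0.937), *Ranbp1* of nuclear transport (0.925), *Gm7536*, a copy of *Rpl27a* (0.914), *Snrpf* of the spliceosome (0.912), *Rack1*, a protein of the small subunit (0.911), *Psmb6* of the proteasome (0.910), *Atpif1*, the inhibitor of ATP synthase (0.909), and *Sap18b* (0.906). *Uqcrb* was 219, 155, 172 and 152 in control SD, 289, 183, 219 and 159 in mutant SD, 236, 171, 172 and 216 in the libraries labelled control HFD and 163, 177, 201 and 197 in mutant HFD. Its highest library, mutant SD mouse 1, was also that of the member median.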

How the data were processed

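Whole pituitaries of 16 female mice, 4 per group, were read as 1 bulk RNA-seq library per mouse. The authors made libraries with NEBNext Ultra II for a NovaSeq, ran Kallisto (gene mode, mm10) and Sleuth, and deposited a normalized signal per gene, not counts. Tool versions, annotation release and use of strand are not given in the sources used here.

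The 77 members and all gene lists were chosen with earlier results of these data known. The filter kept 14345 genes whose 16 values averaged 1 or more. For these, limma 3.58.1 (R 4.3.3) fitted a mean for each group to log2(value + 0.5), with a trended eBayes prior. The 7 comparisons were each adjusted by Benjamini-Hochberg and called at 0.05. The code was tested on simulated data. Single genes were also compared by two-sided exact permutation tests (scipy 1.17.1, Python 3.11.15, numpy 2.4.6, pandas 2.3.3, matplotlib 3.10.9). Coordinates are from GENCODE M21 on GRCm38 and start sites from RefSeq. Copies were found with BLAST 2.17.0 at 90% identity or more over at least 100 bases. Whole transcripts had been planned as queries, but their repeats matched unrelated genes, so coding sequences were used.

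Named with values were members called in any comparison, the 3 highest and 3 lowest fold changes in each pairwise comparison, the 5 highest and 5 lowest means, Rps7 with Gm6472, Rplp0, genes with a paralogue, Esr1, list genes called (at most 5 a list) and the 10 genes most like the member median. Some genes count in totals and medians but are not reported here by name. Lists were ribosomal proteins named otherwise, elongation and tract mRNAs, initiation, RNA polymerase I, assembly, mTOR, small nucleolar RNA hosts, p53 targets, mitochondrial ribosomal and encoded proteins, and cell type markers. Alternatives were filters of 0.1, 5 and none, quantile normalization, median scaling, pseudocounts of 0.1 and 1, scaling to the sum without Prl, Gh and mitochondrial genes, eBayes without trend, only the 8 mice compared, a covariate for 2 ranges of animal numbers, calls at 0.01, members summed with their copies, members without copies, and each mouse left out. Leaving out mutant SD mouse 1 and the library labelled control HFD 4 together was an unplanned alternative, chosen with the values already known.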

Additional observations from a re-analysis of the deposited data

Results flagged for a closer look

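Of 280 groups of 4 libraries examined over 70 measures, 35 held a library whose gap to the nearest of the other 3, divided by the range of the group, was over Dixon's critical value. Chance flags about 1 in 20 groups, or 14 here. By library, 11 were in mutant SD mouse 1, 10 in control SD mouse 1, 5 in mutant HFD mouse 1, 4 in the library labelled control HFD 1, 3 in the library labelled control HFD 4, and 1 each in mutant HFD mouse 2 and mutant SD mouse 4.

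In mutant SD mouse 1, Esr1 (10.02), Rps3 (228) and Rplp0 (352) lay far under the other mutants on SD, and so did Rpl3 with its copies (517). Rps18 (51.9), Gm6472 (977), Mrpl36 (55.7), Plvap (143.1), Rack1 (655), Rpl36a with its copy (1102) and the sum of mitochondrially encoded genes (119409) lay far above them.

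In control SD mouse 1 all 10 measures were high. They were Rps29 (1728), Rplp0 (707), Rpl41 (3674), Rpl35 (375), Rpl3 with its copy (845.5), Bex2 (326), Ranbp1 (44.9), Rack1 (525), the members' percent of all values (7.45%) and the member median deviation (0.18).

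In mutant HFD mouse 1, Rpl29 (328), Rpl5 (52.9) and Rpl10 with its copies (2502) were high and Gm13841 and Gm8210 (123 each) were low. In the library labelled control HFD 1, Rpl35a (1109), Rps12 (176), Txn1 (103) and Ranbp1 (46.2) were high.

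In the library labelled control HFD 4, Rps7 (357.9), its share of the sum with Gm6472 (42.1%) and Cdh5 (13.5) stood far above the other libraries labelled control HFD. Trp53inp1 was low in mutant HFD mouse 2 (31.2), and C1qa was high in mutant SD mouse 4 (58.5).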

How the results depend on the processing

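With 1 mouse left out at a time, 222 of 224 member counts and medians moved by no more than 1.5 times or by less than the spread between replicates, and so did 188 of 197 under 15 other alternatives. That spread was 0.16 on the log2 scale, larger than every member median but those on SD and in the interaction. A smaller median could thus reach 0 or change sign without being counted as moved. Most member counts were 0 to begin with, so these totals say little about stability. The exceptions follow, and the cause was not tested unless the alternative itself shows it. Members called ranged from 1 to 3 on SD and from 0 to 1 on HFD when single mice were left out, beside 33 to 826 and 0 to 653 of all genes. Under quantile normalization the member median was −0.008 on SD and −0.078 in the interaction, and Rpsa for HFD in controls was −0.069 (−0.040 with the sum scaling, where the median of all genes was itself −0.0495). With only the 8 mice compared, 2 members were called on SD, Rps7 and Rpl30 (adjusted p 0.0206), beside 311 of all genes. With animal numbers entered as 2 ranges, Rpl29 on HFD was −0.392 and Rpl35a for HFD in controls 0.213.

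With listed copies summed in, 0 members were called on SD and 0 over both diets, and the fold changes were 0.163 (SD), −0.144 (HFD), 0.009 (both diets) and −0.068 (diet, both genotypes) for Rps7, 0.047 for Rpl29 on SD, −0.117 on SD and −0.074 for HFD in controls for Rpl30, −0.044 for Rpl10 on HFD and 0.058 for Rpl35a for HFD in controls. Among members without a listed copy, 0 were called on SD and 0 over both diets, since Rps7 has copies. Without mutant SD mouse 1 and the library labelled control HFD 4, 1 member was called on HFD (Rps7) and 2 over both diets (Rps7 and Rpl10). Neither of these Rps7 calls is a test, since its value had helped to single out the library labelled control HFD 4. In the same setting Rps3 was 0.016 on SD and −0.030 for HFD in mutants. Rpsa was −0.009 for HFD in controls and Rplp0 −0.015 for HFD in mutants.

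Leaving out single mice turned the sign of Rps3 on SD (−0.412 to 0.016) and for HFD in mutants (−0.030 to 0.398), Rplp0 on SD (−0.039 to 0.295), on HFD (−0.011 to 0.237) and for HFD in mutants (−0.015 to 0.319), Rpsa for HFD in controls (−0.096 to 0.096), and Rpl29 on HFD (−0.227 to 1.561) and for HFD in mutants (−0.304 to 1.484). Of 736 named gene values with 1 mouse left out, 101 lost and 4 gained a call, and of 595 under other alternatives 32 lost and 5 gained one. The 32 include calls that ended only because the threshold was set at 0.01. Values unchanged at that threshold were not counted among the 595. Rps2 was read at most 166 times in a library, and a limit set by depth was not tested. No paired analysis was possible because the labels give animal numbers and no replicate numbers shared between groups.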
